A study of Mus musculus with 18 samples.

Results

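The 41 genes described here encode the proteins that start or restrain WNT signalling outside the cell: 19 WNT ligands, 10 frizzled receptors, 4 secreted frizzled-related proteins (Sfrp1, Sfrp2, Sfrp4 and Sfrp5), 4 dickkopf proteins and 4 R-spondins. They were chosen by symbol from the annotation of a microarray on which 22180 genes were each named alone by a transcript cluster, the probe set of a gene. The arrays were 18 Affymetrix Mouse Gene 2.0 ST arrays, with 6 each from ovary, hypothalamus and pituitary. The females came from 10 littermate pairs of the strain labelled BABL/c, with no genetic change in the labels, and were split at 6 weeks of age into a stress group, driven over 1000 km for nearly 10 h at about 50 km/h, and a control group kept in the same laboratory. All mice of both groups were superovulated at 9 weeks. Each group and tissue has 3 arrays: the single mouse that ovulated the most oocytes (high), the single mouse that ovulated the fewest (low), and a pool of the other 8 mice. Those 3 arrays served as replicates, so p-values measure only the spread between 2 mice and 1 pool. Values are the deposited log2 signals, on which a difference of 1 is 2-fold. In whole tissue, fewer cells of a type and less RNA per cell cannot be told apart.

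WNT proteins are lipid-modified secreted ligands that bind frizzled receptors together with co-receptors. In the canonical branch this stabilises β-catenin, which enters the nucleus and acts with TCF/LEF factors on target genes. Secreted frizzled-related proteins bind WNT ligands, dickkopf proteins mostly block the co-receptors, and R-spondins raise the number of receptors at the surface through LGR proteins. In the mouse ovary Wnt4 and Rspo1 are needed for female gonad development, and Wnt4, Fzd1, Fzd4 and Sfrp4 have known roles in follicles and corpora lutea. In the ventral brain and pituitary, WNT signals shape the tissue during development.

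The tissue labels held against markers: all 6 arrays of a tissue lay above every other array for 7 of 8 ovary markers (Amh was the exception), 6 of 7 hypothalamus markers (not Kiss1) and 7 of 7 pituitary markers. Several pools stood apart. Cyp11a1, the first enzyme of steroid synthesis and very bright in ovary, measured 10.52 in the stressed hypothalamus pool and 11.34 in the stressed pituitary pool, against 3.51 to 6.99 on the other 10 arrays of those tissues. Prolactin (Prl), a pituitary hormone, measured 11.44 in the stressed and 10.82 in the control ovary pool, against 3.63 to 5.09 in the single ovaries. Single mice differed too. In hypothalamus Prl measured 8.68 (stress, high) and 9.26 (control, low), against 6.55 (stress, low) and 5.53 (control, high). The pituitary marker list averaged 6.38 and 6.66 in the former mice, against 5.68 and 5.61 in the latter. The part of pituitary RNA in the hypothalamus values by class was not tested.

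Ovary stood out among the tissues for these genes. A gene was called higher or lower in a tissue when it differed from both other tissues by at least 1 (log2) with a Benjamini-Hochberg adjusted p under 0.05 in limma. By this rule 9 of 41 genes were higher in ovary, where 6.42% of all genes were. They were 4 of 19 ligands (Wnt4, Wnt5a, Wnt6 and Wnt10b), 2 of 10 receptors (Fzd1 and Fzd4) and 3 of 4 secreted frizzled-related proteins (Sfrp1, Sfrp2 and Sfrp4). For each of the 9, all 6 ovary arrays lay above all 12 others. Only Sfrp5 was lower in ovary (1 of 41, against 4.77% of all genes). Hypothalamus had 2 genes higher (Wnt3 and Wnt7b, against 6.49% of all genes) and 2 lower (Fzd6 and Fzd7, against 2.81%). Pituitary had 0 higher (against 2.07%) and 2 lower (Rspo1 and Sfrp1, against 1.06%). The other 26 genes fell in no category, as Sfrp1 counts in 2.

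**Figure D1:**
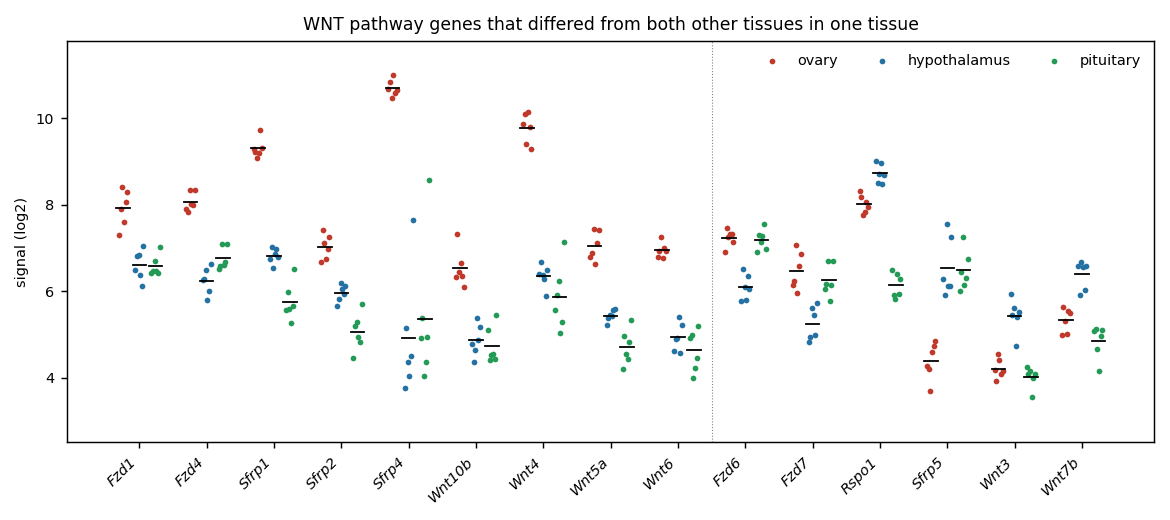
Log2 signal of the 15 genes that differed from both other tissues in at least 1 tissue. Each point is 1 array (6 per tissue, ovary left, then hypothalamus and pituitary), and black bars are means. Left of the dotted line, all ovary points of the 9 genes higher in ovary lie above those of the other tissues, while 1 hypothalamus and 1 pituitary point of Sfrp4 lie far above the rest of their tissue.

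Among the ligands, Wnt4 had the largest tissue difference. Its ovary signal ran from 9.28 to 10.15 (median 9.84), against 5.88 to 6.69 in hypothalamus (median 6.39) and 5.03 to 7.15 in pituitary (median 5.75). The 3 tissues' ranges left a wide gap below ovary, and hypothalamus and pituitary overlapped. The ovary minus hypothalamus difference of Wnt4 was 3.42 (95% confidence interval 2.86 to 3.97, adjusted p = 1.64e-09, limma) and the ovary minus pituitary difference was 3.91 (3.35 to 4.46, adjusted p = 5.51e-10). Wnt6 averaged 6.95 ± 0.17 in ovary, against 4.94 ± 0.33 in hypothalamus and 4.63 ± 0.48 in pituitary (SD, n = 6 each). Its pituitary mean lay just below the 95th percentile of odorant receptor genes there (4.65), used below as the dim-signal level. Wnt5a, which mostly signals without β-catenin, averaged 7.05 ± 0.34 in ovary, against 5.44 ± 0.14 in hypothalamus and 4.72 ± 0.41 in pituitary. Wnt10b averaged 6.53 ± 0.43 in ovary, against 4.87 ± 0.37 in hypothalamus and 4.74 ± 0.43 in pituitary. These 3 ligands differed from both other tissues by 1.61 to 2.33. Wnt2 and Wnt11 had no call: Wnt2 averaged 4.67 ± 0.15 in ovary, 4.87 ± 0.27 in hypothalamus and 4.76 ± 0.12 in pituitary, and Wnt11 averaged 5.46 ± 0.08 in ovary, 5.25 ± 0.22 in hypothalamus and 5.24 ± 0.22 in pituitary.

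Among the receptors, Fzd4 ran from 7.82 to 8.35 in ovary (median 8.01), against 5.80 to 6.63 in hypothalamus (median 6.28) and 6.53 to 7.09 in pituitary (median 6.64). Fzd4, also a receptor for the non-WNT ligand norrin, differed by 1.83 between ovary and hypothalamus (1.55 to 2.10, adjusted p = 5.5e-10, limma) and by 1.32 between ovary and pituitary (1.04 to 1.59, adjusted p = 1.02e-07). Fzd1 averaged 7.93 ± 0.42 in ovary, against 6.61 ± 0.34 in hypothalamus and 6.58 ± 0.24 in pituitary (SD, n = 6 each). Fzd6 and Fzd7 showed another pattern, with hypothalamus apart from the other tissues. Fzd6 averaged 7.24 ± 0.19 in ovary, 6.10 ± 0.30 in hypothalamus and 7.19 ± 0.24 in pituitary. Fzd7 averaged 6.47 ± 0.43 in ovary, 5.25 ± 0.38 in hypothalamus and 6.26 ± 0.37 in pituitary. The Fzd6 hypothalamus minus pituitary difference of -1.09 was -0.98 in the control arrays alone, short of a call. The Fzd7 call sits at the threshold: its hypothalamus minus pituitary difference was -1.0, with -0.99 without the pools. It was -0.96 without the high and -0.98 without the low control hypothalamus, -0.90 without the low stressed hypothalamus, -0.92 without the stressed pituitary pool and -0.96 without the control pituitary pool. Fzd3, a receptor of axon guidance and planar polarity, ran the other way, with 7.0 ± 0.29 in ovary, 8.01 ± 0.38 in hypothalamus and 7.50 ± 0.20 in pituitary, and all 6 hypothalamus arrays above all 6 ovary arrays.

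The inhibitors ran in both directions. Sfrp4 ran from 10.47 to 11.02 in ovary (median 10.66), against 3.76 to 7.64 in hypothalamus (median 4.44) and 4.04 to 8.57 in pituitary (median 4.92). Its ovary minus hypothalamus difference was 5.80 (4.73 to 6.86, adjusted p = 1.04e-08, limma) and its ovary minus pituitary difference was 5.34 (4.28 to 6.40, adjusted p = 5.76e-08). Sfrp1 averaged 9.31 ± 0.23 in ovary, 6.82 ± 0.17 in hypothalamus and 5.76 ± 0.43 in pituitary (SD, n = 6 each), and each tissue differed from both others. Its hypothalamus minus pituitary difference of 1.06 was 0.94 without the high stressed pituitary, which ends that call. Sfrp2 averaged 7.03 ± 0.29 in ovary, 5.96 ± 0.21 in hypothalamus and 5.07 ± 0.43 in pituitary. A second, dimmer Sfrp2 cluster measured 3.61 to 4.56 over all arrays, and with the mean of both clusters the ovary minus hypothalamus difference was 0.47, below the size required, as was the 0.99 without the low control ovary. Sfrp5 showed the reverse order, with 3.69 to 4.85 in ovary (median 4.44), against 5.92 to 7.55 in hypothalamus (median 6.21) and 6.01 to 7.25 in pituitary (median 6.38). Its differences were -2.15 from hypothalamus (-2.66 to -1.65, adjusted p = 2.97e-07) and -2.10 from pituitary (-2.60 to -1.59, adjusted p = 6.82e-07). Its ovary mean of 4.39 lies below the dim-signal level of ovary (4.58, the 95th percentile of odorant receptor genes there), so the size is better read from that level, above which hypothalamus lay by 1.97 and pituitary by 1.91. The dickkopf genes had 0 of 4 calls. Dkk3, the family member with a disputed role in WNT inhibition, averaged 7.56 ± 0.19 in ovary, 7.75 ± 0.20 in hypothalamus and 6.83 ± 0.24 in pituitary, with every pituitary array below the rest but differences under 1.

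Of the R-spondins, Rspo1 set pituitary apart. It ran from 7.77 to 8.31 in ovary and from 8.49 to 9.01 in hypothalamus, against 5.82 to 6.49 in pituitary, so that the 3 tissues did not overlap. Its hypothalamus minus pituitary difference was 2.58 (2.31 to 2.86, adjusted p = 2.08e-11, limma) and its ovary minus pituitary difference was 1.88 (1.60 to 2.15, adjusted p = 1e-09). The ovary minus hypothalamus difference of Rspo1 was -0.71 (adjusted p = 0.000158). Rspo2, Rspo3 and Rspo4 had tissue means between 4.70 and 6.11 and no call.

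In hypothalamus the ligands Wnt3 and Wnt7b, both known from brain development, were higher than elsewhere. Wnt3 ran from 3.92 to 4.54 in ovary (median 4.16), from 4.74 to 5.93 in hypothalamus (median 5.48) and from 3.55 to 4.25 in pituitary (median 4.09), so all hypothalamus arrays lay above the others. The ovary minus hypothalamus difference of Wnt3 was -1.23 (adjusted p = 5.25e-07, limma) and the hypothalamus minus pituitary difference was 1.42 (adjusted p = 1.47e-07). Both other tissues lie below their dim-signal levels (4.58 in ovary and 4.65 in pituitary), and hypothalamus exceeded these levels by 0.86 and 0.79, less than the size required for a call. Wnt7b, a ligand of brain vessel formation, averaged 5.33 ± 0.29 in ovary, 6.39 ± 0.34 in hypothalamus and 4.85 ± 0.39 in pituitary (SD, n = 6 each). Its ovary minus hypothalamus difference was -1.06 (-1.45 to -0.67, adjusted p = 7.7e-05, limma) and its hypothalamus minus pituitary difference was 1.55 (1.16 to 1.93, adjusted p = 1.39e-06). The first was short of the required size without the pools (-0.98), after quantile normalization or centring (both -0.98), and without the high stressed ovary (-0.99), the high control ovary (-0.96), the high stressed hypothalamus (-0.97), the high control hypothalamus (-1.0) or the control hypothalamus pool (-0.97). Wnt7a, which shares receptors with Wnt7b, averaged 4.84 ± 0.23 in ovary, 5.63 ± 0.14 in hypothalamus and 4.74 ± 0.31 in pituitary. Its hypothalamus arrays lay above all others, with mean differences under 1. In pituitary, Wnt9a had all 6 arrays above the rest, with means of 5.67 ± 0.14 in ovary, 5.59 ± 0.13 in hypothalamus and 6.32 ± 0.30 in pituitary, again under 1 apart.

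**Figure D2:**
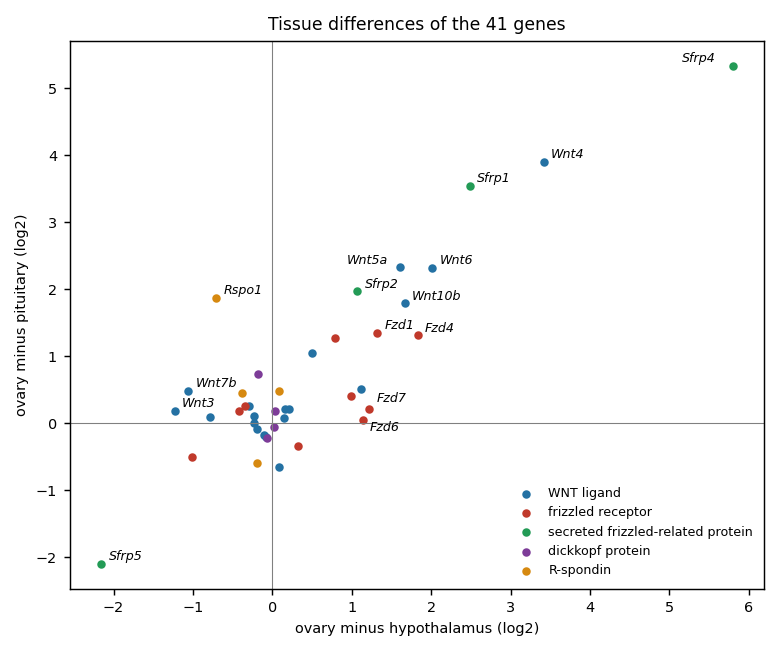
Ovary minus hypothalamus (horizontal axis) and ovary minus pituitary (vertical axis) difference in log2 signal for the 41 genes, 1 point per gene, coloured by family. Genes called higher or lower in a tissue than in both others are named. Sfrp4, Wnt4 and Sfrp1 lie farthest up and to the right, Sfrp5 alone lies far down and to the left, and Rspo1 lies up without lying to the right.

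Pair by pair, 12 genes were higher and 4 lower in ovary than in hypothalamus (11.3% and 11.2% of all genes). Against pituitary, 12 were higher and 1 lower in ovary (8.51% and 7.54% of all genes). Between hypothalamus and pituitary, 4 were higher and 2 lower in hypothalamus (8.47% and 5.91% of all genes). The share of the 41 genes higher in ovary is thus above that of all genes in both pairs. The share lower in ovary than in pituitary rests on 1 gene, too few to set apart from that of all genes. The table has no detection calls, so the 1088 odorant receptor genes served as a guide to dim signals. In ovary 7 of the 41 genes averaged below the 95th percentile of these genes (4.58), namely Dkk1, Dkk4, Fzd10, Sfrp5, Wnt3, Wnt8b and Wnt16. In hypothalamus 5 did (below 4.56), and in pituitary 8 did (below 4.65). Over all 22180 genes, 7649 were this dim in ovary, 7418 in hypothalamus and 7528 in pituitary, a larger share than among the 41 in each tissue. Dkk4, Fzd10, Wnt8b and Wnt16 were this dim in all 3 tissues.

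RefSeq (GRCm38.p6) gave 30 promoters for 27 of the 41 genes, each from 250 bases before to 50 bases after the start. Those of Wnt4 and Fzd4 (higher in ovary), Wnt3 (higher in hypothalamus) and Sfrp5 (lower in ovary) are shown, as 250 bases before the start. They lie at chr4:137277385-137277634 (plus strand), chr7:89404116-89404365 (plus strand), chr11:103773925-103774174 (plus strand) and chr19:42202253-42202502 (minus strand). Capitals mark the GC box GGGCGG on either strand, which is bound by SP factors.
Wnt4: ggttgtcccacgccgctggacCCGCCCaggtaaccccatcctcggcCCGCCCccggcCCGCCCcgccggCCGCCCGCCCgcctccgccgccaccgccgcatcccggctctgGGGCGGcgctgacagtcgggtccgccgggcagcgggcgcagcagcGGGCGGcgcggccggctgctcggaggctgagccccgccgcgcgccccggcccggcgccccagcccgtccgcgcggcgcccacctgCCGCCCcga
Fzd4: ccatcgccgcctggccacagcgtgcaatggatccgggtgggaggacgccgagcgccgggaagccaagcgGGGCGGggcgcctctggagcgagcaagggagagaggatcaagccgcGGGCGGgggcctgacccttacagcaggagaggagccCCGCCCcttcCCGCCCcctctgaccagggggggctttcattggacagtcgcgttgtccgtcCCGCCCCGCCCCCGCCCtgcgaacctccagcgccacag
Wnt3: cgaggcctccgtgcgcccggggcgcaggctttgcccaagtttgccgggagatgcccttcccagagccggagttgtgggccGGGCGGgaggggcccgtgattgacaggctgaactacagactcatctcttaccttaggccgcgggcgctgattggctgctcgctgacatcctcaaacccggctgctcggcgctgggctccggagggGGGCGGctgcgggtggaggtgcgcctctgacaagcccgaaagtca
Sfrp5: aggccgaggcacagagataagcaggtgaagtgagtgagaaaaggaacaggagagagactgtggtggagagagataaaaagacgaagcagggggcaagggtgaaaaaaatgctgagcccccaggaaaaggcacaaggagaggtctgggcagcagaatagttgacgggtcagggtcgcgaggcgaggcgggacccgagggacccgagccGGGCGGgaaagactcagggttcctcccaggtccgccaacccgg

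Counting overlapping matches, the Wnt4 stretch held 8 GC boxes, Fzd4 held 7, Wnt3 held 2 and Sfrp5 held 1. Over the full window, 22 of the 30 promoters (73.3%) held a GC box, against 35.7% of all 32851 RefSeq promoters, and their median GC content was 69.8% against 52.7%. A TCF/LEF motif (CTTTGAT or CTTTGAA, either strand), the site through which WNT signalling acts on its targets, was in 3 of the 30 (10%), those of Dkk1, Wnt11 and Wnt5b, against 8.65% of all promoters. The motif of the transcription factor NR5A1 (CAAGGTCA, either strand) was in 0 of the 30, against 1.56% of all. GC box and NR5A1 were searched after the tissue values had been seen.

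Other genes of the pathway also differed between the tissues. In ovary 5 of 14 co-receptors and surface modulators were called higher than in both other tissues (6.42% of all genes): the co-receptor Lrp5, the R-spondin receptors Lgr4 and Lgr5, and the WNT-binding receptors Ror1 and Ptk7. Lrp5 averaged 8.75 ± 0.18 in ovary, against 6.65 ± 0.15 in hypothalamus and 7.28 ± 0.51 in pituitary (SD, n = 6 each). Lgr4 averaged 9.98 ± 0.41 in ovary, against 7.47 ± 0.69 in hypothalamus and 7.65 ± 0.75 in pituitary. Frzb, a further frizzled-related protein, was also higher in ovary (8.66 ± 0.68, against 5.96 ± 0.29 in hypothalamus and 5.16 ± 0.88 in pituitary), as was the transcription factor Tcf7l1. Hypothalamus was higher for the transcription factors Lef1 and Tcf7l2, their partner Pygo1 and the norrin gene Ndp, which averaged 4.13 ± 0.32 in ovary, 6.68 ± 0.47 in hypothalamus and 4.61 ± 0.59 in pituitary. Wls, which carries WNT ligands to the cell surface, averaged 9.10 ± 0.17 in ovary, 7.15 ± 0.31 in hypothalamus and 8.34 ± 0.098 in pituitary, and was called lower in hypothalamus. Of the 13 measured target genes, Lgr5 was higher in ovary (6.42% of all genes), Lef1 higher (6.49%) and Myc lower (2.81%) in hypothalamus, and Ccnd1 higher (2.07%) and Nkd1 and Apcdd1 lower (1.06%) in pituitary. Of the 8 measured cytosolic components 1, the kinase gene Csnk1e, was lower in pituitary, and of the 7 nuclear ones Tcf7l2 was lower there too (1.06% of all genes).

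None of the 41 genes passed the test for transport stress. In limma, 0 of 22180 genes (0%) had an adjusted p under 0.05 in ovary, hypothalamus or pituitary, and at an unadjusted p under 0.05 there were 592, 245 and 294 genes, among them 2, 1 and 0 of the 41. With ovulation class as a block the counts were also 0. Stress and control arrays did not overlap for 3 of the 41 genes in ovary (8.77% of all genes), 2 in hypothalamus (4.54%) and 4 in pituitary (6.08%). The median standard error over the 41 genes was 0.20 in ovary, 0.23 in hypothalamus and 0.27 in pituitary. In these main fits of all 6 arrays per tissue, the adjusted p-values of the stress differences named below were at least 0.9985. Over the alternative fits described at the end, the lowest of a followed stress difference was 0.285 (Wnt10a in pituitary, limma).

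**Figure D3:**
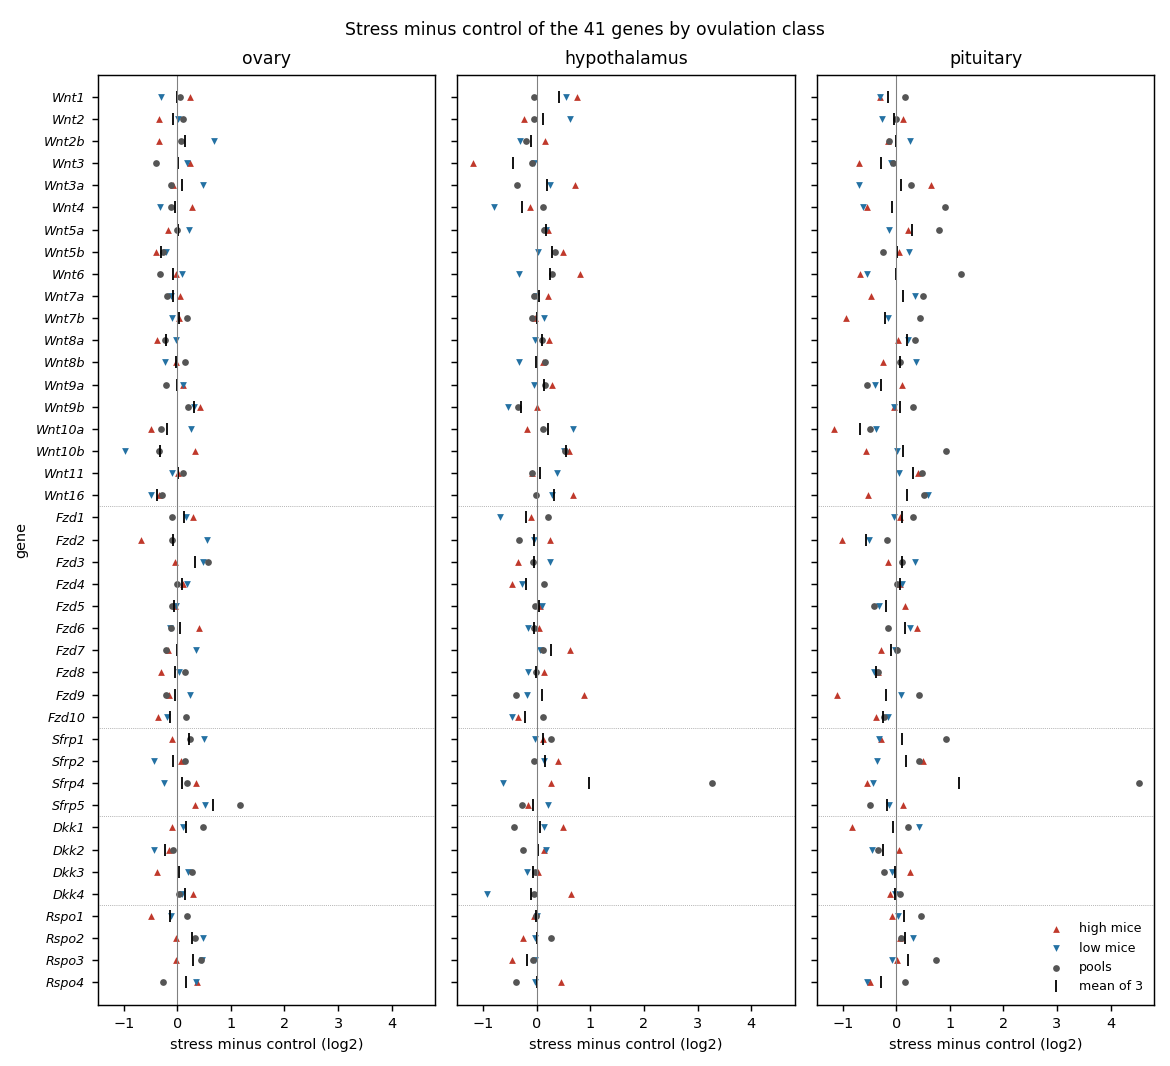
Stress minus control difference in log2 signal (horizontal axis) of each of the 41 genes (rows, grouped by family) in ovary, hypothalamus and pituitary. Upward triangles are high mice, downward triangles low mice, circles pools (1 stress array minus 1 control array each), and black ticks are means. Most points lie within 1 of zero, and the circles of Sfrp4 in hypothalamus (3.28) and pituitary (4.53) lie far to the right.

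In ovary the gene with the smallest p was Sfrp5, whose ovary mean (4.39) is below the dim-signal level of 4.58. It measured 4.60 (high), 4.72 (low) and 4.85 (pool) in stressed ovaries, against 4.28, 4.20 and 3.69 in control ovaries. All 3 stressed arrays lay above all 3 controls, with a gap that was widest in the pools. The stress minus control difference was 0.67 (0.20 to 1.14, unadjusted p = 0.0107, limma), with 0.32 in high mice, 0.52 in low mice and 1.16 in pools. It was 0.42 without the pools. Sfrp5 is brighter in pituitary, and the pituitary marker list averaged 7.31 in the stressed and 6.88 in the control ovary pool, against 4.50 to 4.85 in single ovaries; its part in the Sfrp5 difference was not tested.

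Wnt16, the ligand next in order and among the dimmest, measured 3.65 (high), 3.66 (low) and 3.74 (pool) in stressed ovaries, against 3.99, 4.15 and 4.03 in controls, a difference of -0.37 (-0.74 to -0.01, unadjusted p = 0.0472, limma). Wnt9b measured 5.37, 5.40 and 5.49 in stressed ovaries, against 4.95, 5.08 and 5.28 in controls, also without overlap, and differed by 0.31 (-0.08 to 0.71). The next genes were Fzd3 (0.33, -0.14 to 0.81) and Rspo3 (0.29, -0.22 to 0.80) with stress higher, and Wnt5b (-0.30, -0.73 to 0.14), Wnt8a (-0.21, -0.60 to 0.19) and Wnt10b (-0.33, -0.98 to 0.32) with stress lower. Wnt10b differed by 0.33 in high mice and by -0.98 in low mice.

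Among the 9 genes called higher in ovary, Wnt10b had the widest stress difference there (-0.33), and Sfrp1 followed with 0.21 (-0.24 to 0.66). Sfrp2 differed by -0.08 (-0.62 to 0.46) and Wnt6 by -0.09 (-0.52 to 0.34). Wnt4 measured 10.15, 9.80 and 9.28 in stressed ovaries (high, low and pool), against 9.87, 10.12 and 9.41 in control ovaries, a difference of -0.05 (-0.67 to 0.57). Sfrp4 measured 11.02, 10.60 and 10.65 in stressed ovaries, against 10.68, 10.84 and 10.47 in controls, a difference of 0.10 (-0.35 to 0.54). In both genes the sign differed between high and low mice. Fzd1 differed by 0.12 (-0.56 to 0.80), Fzd4 by 0.10 (-0.38 to 0.57) and Wnt5a by 0.01 (-0.58 to 0.60). Of the other genes known from the rodent ovary, Rspo1 differed by -0.14 (-0.59 to 0.31), Dkk3 by 0.03 (-0.41 to 0.48), Wnt2 by -0.08 (-0.49 to 0.34) and Wnt11 by 0.01 (-0.36 to 0.38). Of the 9 genes Wnt4, Sfrp4, Fzd1, Fzd4, Wnt5a, Rspo1, Dkk3, Wnt2 and Wnt11, Rspo1 was the only one whose sign was the same under every alternative processing tried. The intervals of Wnt11, Wnt2, Dkk3 and Sfrp4 reach no farther than 0.54 in either direction, while those of Wnt4, Wnt5a, Fzd1, Fzd4 and Rspo1 reach farther, to 0.80 for Fzd1.

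In hypothalamus Wnt10b, a canonical ligand, had the smallest p. It measured 5.38 (high), 4.87 (low) and 5.16 (pool) in stressed mice, against 4.78, 4.36 and 4.64 in control mice. The stressed arrays lay above all controls and the class differences were alike, 0.60 in high mice, 0.51 in low mice and 0.52 in pools. The mean difference was 0.54 (0.06 to 1.03, unadjusted p = 0.0326, limma). Without the pools it was 0.56 (-0.10 to 1.21), an interval that includes 0. Wnt10b is brighter in ovary, and the ovary marker list averaged 6.20 in the stressed and 4.90 in the control hypothalamus pool. The part of ovary RNA in the pool difference of Wnt10b was not tested. Wnt5b, a non-canonical ligand, measured 5.51, 5.07 and 5.19 in stressed mice, against 5.02, 5.05 and 4.86 in controls, a difference of 0.28 (-0.16 to 0.73) without overlap. Wnt1 differed by 0.42 (-0.13 to 0.96) and Wnt16 by 0.32 (-0.15 to 0.79). On the lower side, Wnt3 measured 4.74, 5.40 and 5.51 in stressed mice, against 5.93, 5.44 and 5.60 in controls. The high mice made up most of its difference of -0.45 (-1.02 to 0.13), with -1.20, against -0.05 in low mice and -0.09 in pools. Wnt9b (-0.30, -0.76 to 0.16), Wnt4 (-0.27, -0.77 to 0.22) and Rspo3 (-0.19, -0.65 to 0.28) followed. Low mice had the widest class difference for Wnt9b (-0.53) and Wnt4 (-0.81), and high mice for Rspo3 (-0.46). With 1 array left out, Wnt4 ran from -0.41 to -0.10, Rspo3 from -0.32 to -0.04 and Wnt1 from 0.21 to 0.54.

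In pituitary Wnt10a had the smallest p. This canonical ligand measured 5.43 (high), 6.22 (low) and 6.59 (pool) in stressed mice, against 6.59, 6.60 and 7.08 in control mice. The stressed values lay below all controls, by less than 0.01 at the closest, and the difference was -0.68 (-1.42 to 0.06, unadjusted p = 0.0684, limma). It was -1.17 in high mice, -0.37 in low mice and -0.49 in pools. Without the pools the Wnt10a difference was -0.77 (-1.44 to -0.10). Fzd2 measured 4.54, 4.41 and 5.64 in stressed mice, against 5.56, 4.91 and 5.82 in controls, a difference of -0.56 (-1.43 to 0.30) with overlap. Without the pools the Fzd2 difference was -0.76 (-1.38 to -0.14), and 0 genes passed in that fit. Fzd8 differed by -0.37 (-0.97 to 0.23), by nearly the same amount in each class (-0.34, -0.42 and -0.35). Wnt3 lay lower without overlap (-0.29, -0.81 to 0.23), at a dim level. On the upper side, Wnt11 (0.31, -0.17 to 0.80) and Wnt8a (0.21, -0.26 to 0.67) had no overlap, and Wnt5a differed by 0.29 (-0.41 to 1.0), or by 0.05 without the pools.

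Sfrp4 showed the widest stress differences of the 41 genes outside ovary, and both came from the pools. In hypothalamus it measured 4.03 (high), 4.51 (low) and 7.64 (pool) in stressed mice, against 3.76, 5.14 and 4.36 in control mice. In pituitary it measured 4.35, 4.94 and 8.57 in stressed mice, against 4.91, 5.38 and 4.04 in controls. The stressed pool was thus the highest array of each tissue, and the single mice overlapped. The mean difference was 0.97 in hypothalamus (-0.88 to 2.82) and 1.18 in pituitary (-1.03 to 3.38), and it turned with the pools. In hypothalamus it was -0.15 without the stressed pool and -0.18 without both pools, and in pituitary it was -0.13 without the stressed pool and -0.50 without both pools. The ovary marker list averaged 6.20 in the stressed hypothalamus pool and 6.86 in the stressed pituitary pool, against 4.63 to 5.03 on the other 10 arrays of both tissues. In the stressed pituitary pool 7 of its 8 markers exceeded every single mouse, and 4 of 8 did in the stressed hypothalamus pool, against 1 of 8 in either control pool. The part of ovary RNA in the Sfrp4 differences was not tested.

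The 9 genes called higher in ovary, Sfrp4 included, were set against the single mice in those pools. In the stressed pituitary pool all 9 exceeded every single pituitary, by a median of 0.83 over the single mice's mean, against 4 of 9 (median -0.03) in the control pool. For the other 32 genes the counts were 17 (median 0.28) in the stressed and 11 (median 0.09) in the control pool. In the stressed hypothalamus pool 5 of the 9 exceeded every single mouse (median 0.32), against 3 of 9 (median 0.05) in the control pool. Wnt4 measured 7.15 in the stressed pituitary pool, against 5.03 to 6.23 on the other 5 pituitary arrays. Beside Sfrp4, the stress minus control difference in pituitary pools was 1.20 for Wnt6, 0.94 for Wnt10b, 0.93 for Sfrp1, 0.91 for Wnt4 and 0.79 for Wnt5a, but 0.42 for Sfrp2, 0.31 for Fzd1 and 0.01 for Fzd4. Without the pools the pituitary differences were -0.61 for Wnt6 (-1.13 to -0.10), -0.27 for Wnt10b, -0.30 for Sfrp1, -0.59 for Wnt4 (-1.14 to -0.03) and 0.05 for Wnt5a. The mean of Wnt6 in pituitary (4.63) is below the dim-signal level there (4.65). A list of 6 thalamus and cortex genes averaged 6.02 in the stressed pituitary pool, against 4.94 to 5.21 on the other 5 pituitary arrays. In that pool 3 of its 6 genes exceeded every single mouse, against 2 of 6 in the control pool. Calb2 of this list measured 8.46 there, against 3.39 to 5.19 on the other 5 arrays. The hypothalamus marker list was not raised there (5.15, against 5.12 to 5.69). The part of ovary or brain RNA in these values was not tested.

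**Figure D4:**
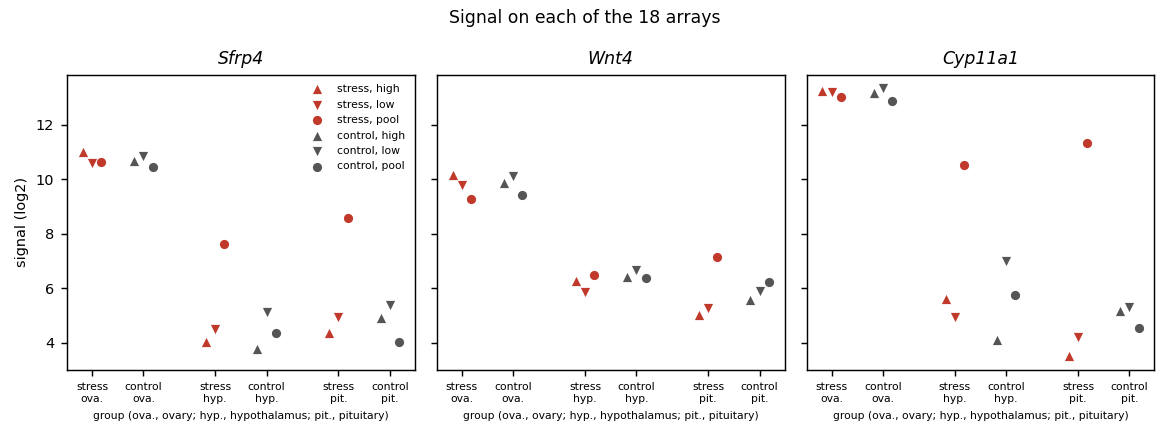
Log2 signal of Sfrp4, Wnt4 and the ovary marker Cyp11a1 on each of the 18 arrays, by tissue, with stress left of control. Upward triangles are high mice, downward triangles low mice and circles pools. The stressed pools of hypothalamus and pituitary lie far above the other arrays of their tissue for Sfrp4 and Cyp11a1, and the stressed pituitary pool also for Wnt4.

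Class by class, with 1 array on each side and so no test, few genes differed by 1 or more. In ovary 0 of 41 did in high mice (2.29% of all genes), 0 in low mice (1.77%) and 1 in pools (Sfrp5, against 0.298%). In hypothalamus 1 did in high mice (Wnt3, against 1.91%), 0 in low mice (1.05%) and 1 in pools (Sfrp4, against 0.537%). In pituitary 3 did in high mice (Wnt10a, Fzd2 and Fzd9, all lower under stress, against 5.56%), 0 in low mice (1.46%) and 2 in pools (Sfrp4 and Wnt6, both higher, against 2.08%). Stress minus control had the same sign in all 3 classes for 9 of 41 genes in ovary (36.3% of all genes), 8 in hypothalamus (23.6%) and 9 in pituitary (27.8%). The median difference of the 41 genes in high mice was -0.03 in ovary, 0.13 in hypothalamus and -0.15 in pituitary, against -0.04, -0.02 and -0.08 over all genes. In low mice it was 0.09 in ovary, -0.03 in hypothalamus and -0.09 in pituitary, against 0.00, -0.02 and -0.03 over all genes. In pools it was 0.00, -0.04 and 0.16, against -0.01, -0.02 and -0.02.

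By family, 14 of 19 ligands had a mean above control in stressed hypothalamus (median 0.12, range -0.45 to 0.54), against 8 of 19 in ovary (median -0.03) and 10 of 19 in pituitary (median 0.02). Over all genes, 44.5% lay above control in hypothalamus, 46.8% in ovary and 43.6% in pituitary. Of the 10 frizzled genes, 4 lay above control in ovary, 3 in hypothalamus and 4 in pituitary, with medians of -0.03, -0.05 and -0.15. All 4 dickkopf genes lay below control in pituitary, with differences between -0.25 and -0.02. None of these differences passed the test.

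Downstream of the ligands, 0 genes of the pathway lists passed for stress in any tissue. Of 13 measured target genes, 12 lay below control in stressed hypothalamus (median -0.11) and 10 in stressed ovary (median -0.15), while 4 did in pituitary (median 0.05). Over all genes, the shares above control were the 44.5%, 46.8% and 43.6% already given for hypothalamus, ovary and pituitary. In hypothalamus Tcf7l2 differed by -0.77 (-1.54 to 0.00), with -1.53 in high mice, -0.87 in low mice and 0.09 in pools, and Lef1 by -0.52 (-1.19 to 0.14). Both factors are known from the thalamus. The thalamic marker Prkcd measured 6.14, 7.75 and 7.74 in stressed hypothalamus (high, low and pool), against 7.90, 8.99 and 7.57 in controls. The thalamus and cortex list of 6 genes averaged 6.28, 6.90 and 6.77 in stressed hypothalamus, against 7.01, 7.25 and 6.76 in controls. Its genes did not move together: Calb2 measured 10.96, 10.65 and 11.06 in stressed mice, against 10.89, 10.54 and 10.99 in controls, and Rorb and Tbr1 were higher under stress in low mice and lower in high mice. The part of neighbouring tissue in the Tcf7l2 and Lef1 differences was not tested.

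Whether the stress difference itself differed between tissues was tested as an interaction on all 18 arrays. No gene passed in any pair of tissues (0%, 0% and 0% of 22180 genes), and 496 (ovary minus hypothalamus), 805 (ovary minus pituitary) and 773 genes (hypothalamus minus pituitary) had an unadjusted p under 0.05. Among the 41 there were 4, 0 and 2. Between ovary and hypothalamus these were Wnt10b (-0.87, -1.71 to -0.04), Wnt16 (-0.69, -1.26 to -0.12), Wnt5b (-0.58, -1.07 to -0.09) and Wnt9b (0.61, 0.00 to 1.22). Between hypothalamus and pituitary they were Wnt10a (0.88, 0.24 to 1.52) and Wnt1 (0.56, 0.01 to 1.12).

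The high mice were also compared with the low mice across both treatments, 2 single mice against 2. The fit took all 6 arrays of a tissue, with the pools as a class of their own. The pools thus entered the error behind the p-values and intervals. In limma 0 genes passed in ovary, hypothalamus or pituitary (0% of all genes each), while 2382, 4275 and 1160 genes had an unadjusted p under 0.05. Among the 41 these were 7 in ovary, 6 in hypothalamus and 0 in pituitary, with lowest adjusted p-values of 0.408, 0.145 and 0.900. In ovary all 7 lay below 0 for high minus low, with -0.61 for Wnt7b (-0.99 to -0.22), -0.53 for Fzd1 (-0.94 to -0.12) and -0.64 for Wnt2b. Fzd9 had -0.54, Rspo3 -0.50, Sfrp2 -0.48 and Wnt8b -0.47. Wnt7b measured 5.0 (stress) and 4.98 (control) in high ovaries, against 5.55 (stress) and 5.64 (control) in low ovaries. In hypothalamus Wnt7b lay the other way, at 6.57 and 6.60 in high mice (stress and control), against 6.03 and 5.90 in low mice, a difference of 0.61 (0.23 to 1.0, adjusted p = 0.153). Fzd6 (-0.65, -1.03 to -0.27) and Fzd3 (-0.68, -1.15 to -0.22) lay below 0 in hypothalamus, and Rspo1 (0.49, 0.12 to 0.86), Fzd10 (0.59) and Wnt10b (0.47) lay above 0. When only the 11090 genes at or above the median signal of hypothalamus were tested, 1138 genes (10.3%) passed in limma. Among them were 3 of the 17 WNT genes left, namely Fzd3, Fzd6 (adjusted p = 0.0354) and Wnt7b (adjusted p = 0.0395). The thalamus and cortex list averaged 6.28 (stress) and 7.01 (control) in high hypothalamus, against 6.90 and 7.25 in low. Its gene Rorb measured 6.87 and 7.07, against 7.99 and 7.86. Prkcd, Slc17a7 and Neurod6 were likewise lower in high than in low mice under both treatments. Calb2 lay the other way (10.96 and 10.89, against 10.65 and 10.54), and Tbr1 differed in sign between treatments. The part of neighbouring tissue in the high minus low differences was not tested.

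Pools and single mice were compared as well. Both pools lay above all 4 single mice for 5 of 10 frizzled genes in ovary (Fzd1, Fzd2, Fzd4, Fzd7 and Fzd8), 8 in hypothalamus and 7 in pituitary. Over the 41 genes the counts were 6 in ovary (20.9% of all genes), 14 in hypothalamus (21%) and 13 in pituitary (24.4%). Both pools lay below all single mice for 2 of the 41 in ovary (Wnt4 and Wnt7a, against 16.2%), 1 in hypothalamus (Wnt8a, against 15.7%) and 1 in pituitary (Fzd3, against 18.7%). Fzd8 measured 7.14 and 7.0 in the ovary pools (stress and control), against 6.20 to 6.64 in single ovaries. It measured 6.06 and 6.07 in the hypothalamus pools, against 5.32 to 5.67 in single mice, and 6.46 and 6.81 in the pituitary pools, against 5.84 to 6.29. Fzd7 measured 6.70 in both pituitary pools, against 5.77 to 6.17 in single mice. Fzd1, Fzd2, Fzd4, Fzd7 and Fzd8 lay above in all 3 tissues. Other-tissue RNA differed between these arrays too. The pituitary marker list averaged 7.31 and 6.88 in the ovary pools (stress and control), against 4.50 to 4.85 in single ovaries. The ovary marker list averaged 6.86 and 4.73 in the pituitary pools, against 4.63 to 4.92 in single mice, and 6.20 and 4.90 in the hypothalamus pools, against 4.65 to 5.03. Its part in the frizzled values was not tested. This comparison was made after the values had been seen, and pooling and ovulation class cannot be told apart in it.

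**Figure D5:**
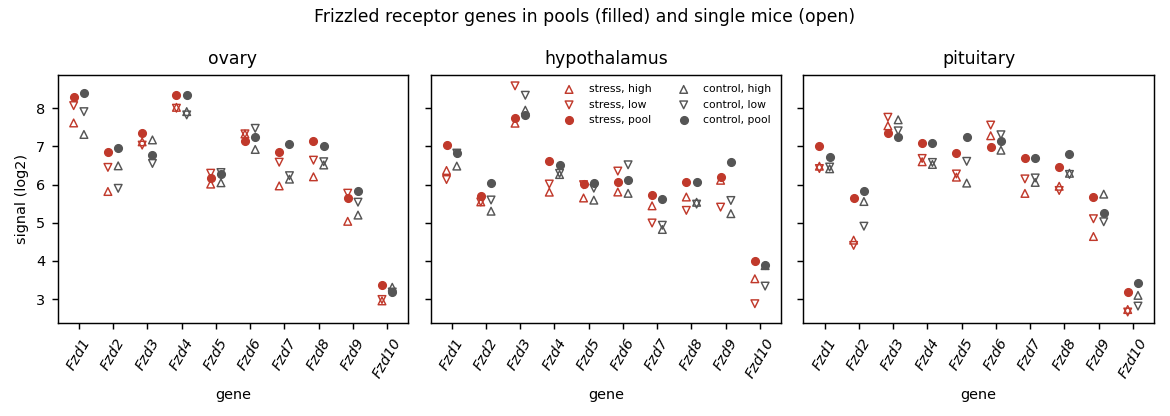
Log2 signal of the 10 frizzled genes in ovary, hypothalamus and pituitary, with stress (red) left of control (grey). Filled circles are pools and open triangles single mice, upward for high and downward for low. The filled circles of Fzd1, Fzd2, Fzd4, Fzd7 and Fzd8 lie above the triangles in all 3 tissues; levels of different genes cannot be compared with each other.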

How the data were processed

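Total RNA was labelled with biotin and hybridised to 18 arrays. The authors deposited log2 signals, 1 for each cluster on each array. The submitters' processing notes name Transcriptome Analysis Console as the tool. Its version, background correction and its normalization are not given in the sources used here. No file states the log base, which fits log2 because the highest value is 13.7. Of 41345 clusters, 25335 carry an annotation, 23521 name 1 gene and were used, and 1814 name several and were left out. A gene with several clusters took that of highest mean, which gave 22180 genes. No filter on low values was applied, and the number of arrays limits the precision. Each tissue was fitted by itself for stress minus control (lmFit and eBayes, limma 3.58.1, R 4.3.3, two-sided, Benjamini-Hochberg over all genes). High minus low had treatment and ovulation class, pools included, as terms. Tissue differences and interactions used all 18 arrays with the mouse or pool as a random block (correlation 0.27), since its 3 tissues share a source. Intervals are 95% intervals. The stress fit and the ovary minus hypothalamus contrast, the latter without the animal block, were tried on simulated data with independent noise. The interaction and high minus low fits were not. The class names pair stress with control samples, and the pairing comes from these names, not from shared animals. Correlations of deviations from group means ran from 0.359 to 0.727 for all same-class pairs and from -0.521 to 0.321 for different-class ones. Pool pairs had 0.660 to 0.727, and pools with single mice -0.521 to -0.283. Single mice of the same class had 0.405 and 0.520 in hypothalamus, against -0.050 and 0.135 between high and low. In pituitary these were 0.366 and 0.359, against 0.313 and 0.321, so the check barely separates high from low there. Promoters were read from RefSeq and figures drawn with matplotlib 3.10.9 (Python 3.11.15). Genes given in full were those called in a tissue, up to 4 per direction and tissue with the smallest stress p, and a set known from the rodent ovary (Wnt4, Wnt2, Wnt5a, Wnt11, Fzd1, Fzd4, Sfrp4, Rspo1 and Dkk3). The 41 genes, the lists and the tests were chosen with earlier results of these data known. Alternatives varied normalization, cluster choice, filtering, weights, blocks, pools and single arrays. Gene coordinates of the array are not given, since its annotation names no build.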

Additional observations from a re-analysis of the deposited data

How the results depend on the processing

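The counts of stress calls were 0 under all 13 alternatives in each tissue, the class as a replicate block included, which changed no call. For single genes, 1286 values under an alternative kept direction and side of the threshold, 30 turned sign, 18 lost a call and 2 gained one.

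Of the 41 genes, those higher in ovary numbered 7 to 13 over the alternatives. With no minimum difference, 7 were higher and 5 lower in hypothalamus, 1 higher and 9 lower in pituitary and 2 lower in ovary. Calls among the 41 were then 22 between hypothalamus and pituitary and 22 between ovary and pituitary, and over all genes 8768 (hypothalamus minus pituitary), 10459 (ovary minus hypothalamus) and 9086 (ovary minus pituitary). Those higher in hypothalamus were 1 after quantile normalization, after median centring or without the pools, 0 among genes at or above the median signal, and 1 to 2 when an array was left out. Those lower in hypothalamus were 1 without the pools and 1 to 2 with an array left out, and those lower in pituitary 1 to 3. In high minus low, hypothalamus called 1138 of 11090 genes and 3 of 17 WNT genes when those below the median signal were left out. The interactions of ovary or pituitary with hypothalamus called 1 gene each without the pools and 0 to 1 with an array left out.

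Of 34 stress differences followed, 28 moved by over 1.5 times or turned sign with an array left out, and 10 turned. In ovary they ran from -0.0826 to 0.19 (Dkk3), -0.16 to 0.38 (Fzd1), -0.0190 to 0.26 (Fzd4), -0.0349 to 0.18 (Sfrp4), -0.0300 to 0.0655 (Wnt11), -0.15 to 0.0482 (Wnt2), -0.25 to 0.18 (Wnt4) and -0.17 to 0.23 (Wnt5a). Without the pools, ovary Dkk3 was -0.0910 and Wnt11 -0.0411. Wnt11 was -0.0115 with array weights, -0.00256 after centring and -0.00522 after quantile normalization. Hypothalamus Sfrp4, followed after its values were seen, ran from -0.15 to 1.65 with an array left out and was -0.18 without the pools. Pituitary Sfrp4 ran from -0.13 to 1.98 with an array left out, and was -0.16 with array weights and -0.50 without the pools. Pituitary Wnt5a was -0.10 with array weights. The cause was not tested. Fits with an array left out kept the block correlation of all arrays. Dim signals limit Dkk4, Fzd10, Wnt8b and Wnt16 in all tissues, and Dkk1, Sfrp5 and Wnt3 in ovary. They also limit Dkk1 in hypothalamus and Dkk2, Wnt1, Wnt3 and Wnt6 in pituitary.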
